A study of Mus musculus with 6 samples.

Results

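Forkhead, T-box, GATA and Nkx proteins are 4 families of DNA-binding factors that set up and maintain cell identity in the embryo. In the lung, Nkx2-1, Gata6 and forkhead factors of the Foxa and Foxp groups act in the epithelium. Foxf1 and the T-box factors Tbx2, Tbx3, Tbx4 and Tbx5 act in the mesenchyme, the connective tissue from which fibroblasts and smooth muscle arise, and Foxf1 acts in the endothelium as well. Other members direct blood and immune cells, such as Gata1 in red cell precursors, Gata3 in T lymphocytes and Foxp3 in regulatory T lymphocytes. Members were taken by gene symbol alone, as every probe whose symbol names a factor of these families. Foxa2, Foxj1 and Foxm1 were left out. The rule found 95 probes for 66 genes among the 25697 probes and 18138 symbols of the array. It used no measured value, but members and gene lists were chosen with earlier results of these data known.

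The values come from the lungs of male mice at postnatal day 6, of the strain labelled FVB and given in the methods as an FVB/N background. The mice labelled hSRY-OFF (n = 3) carried, by the study's definition, a human SRY transgene that had not been recombined. The study also used littermates without this transgene as controls, so the genotype of the comparison mice rests on their label. The hSRY-ON mice (n = 3) had inherited the transgene from the father and Cre recombinase protein from the egg of a Ddx4-Cre mother, and they did not carry Ddx4-Cre themselves. After recombination human SRY and EGFP were driven by the broadly active CAG promoter from a single copy at the H11 locus. The transgene was therefore on in many tissues and from the earliest embryo, and none of the values separates a change in the lung from one that follows a change elsewhere in the pup. Each mouse gave 1 array of the Illumina MouseRef-8 BeadChip type, and precision is limited by having so few arrays.

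Levels are normalized log2 intensities, on which 1 unit is a doubling. A probe counted as detected on an array when its detection p, the share of negative control probes that were brighter, was under 0.05. The number of detected probes per array ran from 13191 to 14134. The arrays of hSRY-ON mice correlated less well with one another (r from 0.972 to 0.980 across probes) than those of hSRY-OFF mice (0.991 to 0.993). The tissue label was borne out by its own markers, since Sftpc, Sftpb and Scgb1a1, which encode surfactant proteins and the club cell secretory protein, were detected on all 6 arrays. Human SRY has no probe on the array.

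Few of these factors were bright enough to compare. Of the 95 member probes, 32 for 24 genes were detected on at least 3 arrays and were tested, which is 33.7%, against 53.9% of all probes. No signal was detected on any array for 34 of the 66 genes, and their absence from the results says only that these probes did not rise above background. Of the 32 tested probes, 10 for 9 genes passed an adjusted p under 0.05 (two-sided test of limma, with Benjamini-Hochberg adjustment across the 13841 tested probes). That is 31.2% of them, beside 26.9% of all tested probes. Foxa3, Foxc1, Tbx1 and Tbx6 were higher in hSRY-ON lungs, or 12.5% of the tested member probes beside 13.6% of all. Foxf1, Foxp3, Tbx2, both probes of Tbx3 and Tbx4 were lower, or 18.8% beside 13.3%. Foxp3 passed the filter through the hSRY-OFF arrays alone, and passing in this way favours probes that are lower in hSRY-ON. Among the 31 tested member probes detected in both groups, 9 were called (29.0%) and 5 were lower (16.1%). Group values did not overlap for 16 of the 32 probes, against 46.6% of all tested probes. The median change of the tested members was -0.14 and that of all tested probes was -0.03, and the same value of -0.14 was obtained with Foxp3, which was not detected on any hSRY-ON array, at the smallest fall its signals allow. Pooled, the 4 families stood close to the rest of the array by these counts. The shares of single families rest on few probes, and a difference between families was not tested. Of the tested probes 85.7% were called in the T-box family (5 of 6 genes) and 20% in the forkhead family (4 of 14 genes). The T-box calls of Tbx2, Tbx4 and Tbx6 were lost when some single arrays were left out. The 3 tested GATA probes and the 2 tested Nkx probes gave no call, and are too few to set a share.

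**Figure D1:**
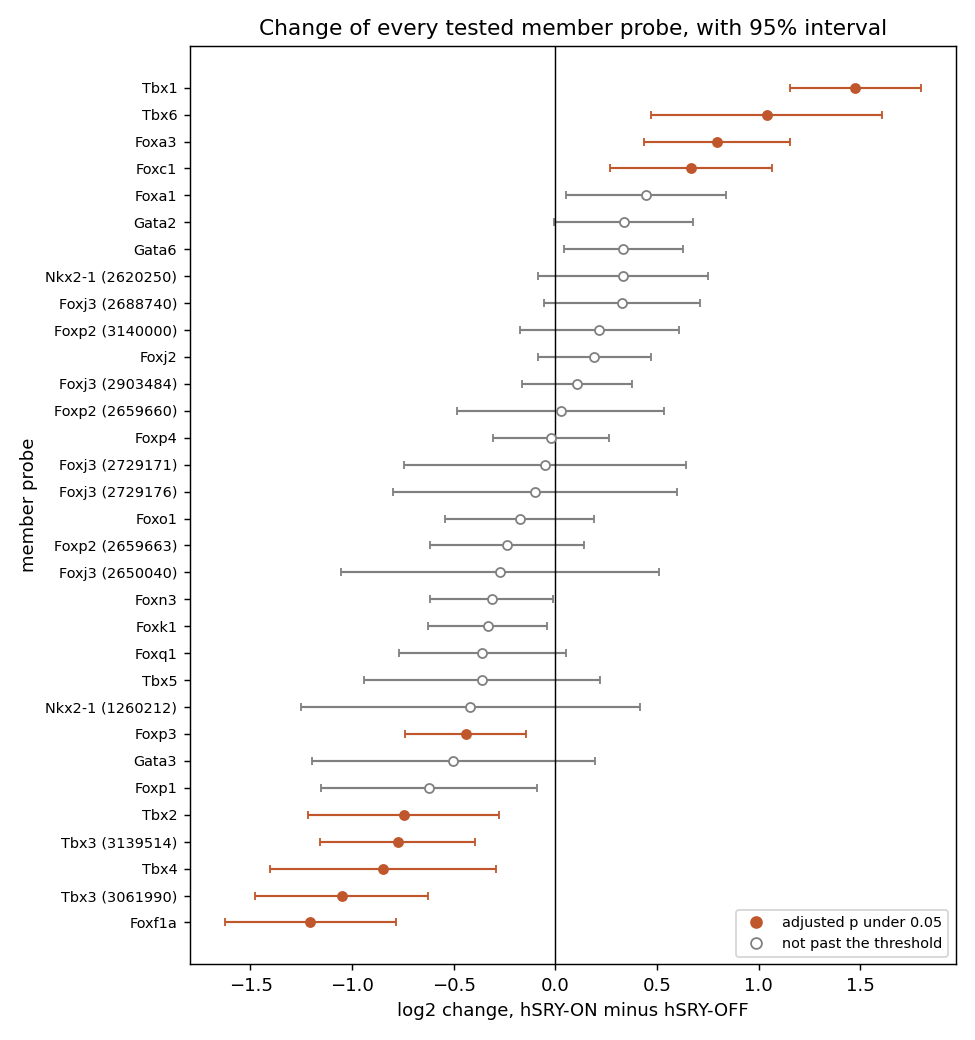
Log2 change (hSRY-ON minus hSRY-OFF, x axis) of each of the 32 tested member probes (y axis, the number of the probe in parentheses where a gene has several), with the 95% interval of the limma fit as a bar. Filled points passed an adjusted p under 0.05, and they run from -1.21 for Foxf1 (Foxf1a on the array) to 1.48 for Tbx1.

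The T-box family held 6 of the 10 calls, from 7 tested probes (85.7%, beside 26.9% of all tested probes). All 5 tested probes of the Tbx2 subfamily (Tbx2, Tbx3, Tbx4 and Tbx5) had a negative change and 4 of them passed the threshold. The other 2 tested T-box probes, for Tbx1 and Tbx6, were both higher in hSRY-ON. The remaining 7 T-box genes (Tbx10, Tbx15, Tbx18, Tbx19, Tbx20, Tbx21 and Tbx22) were not detected on any array.

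Tbx2 and Tbx3 encode repressors that hold mesenchymal cells in a growing, undifferentiated state in the fetal lung. The first probe of Tbx3 (ILMN_3061990) read 8.27, 8.03 and 7.88 on the arrays of hSRY-OFF replicates 1 to 3 and 6.71, 7.05 and 7.26 on those of hSRY-ON replicates 1 to 3. The second (ILMN_3139514) read 9.96, 10.38 and 9.84 against 9.33, 9.31 and 9.22. Each hSRY-ON array lay below each hSRY-OFF array on both probes. The log2 changes were -1.05 ± 0.18 (SE, n = 3 per group; limma, adjusted p = 0.00795) and -0.78 ± 0.16 (SE; limma, adjusted p = 0.0147). Both probes of Tbx3 passed the threshold under all 17 alternatives of background, normalization, filter, model or left-out array that kept the threshold of 0.05, with changes from -1.17 to -0.60 and from -0.89 to -0.62.

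Tbx2 was read by 1 probe, at 11.68, 11.82 and 11.51 in hSRY-OFF and at 10.85, 10.61 and 11.32 in hSRY-ON. The groups did not overlap, and hSRY-ON replicate 3 stood nearest to the hSRY-OFF values. Tbx2 fell by 0.75 on the log2 scale (SE 0.20; limma, adjusted p = 0.0326). This call rested on the full set of arrays. It was lost when any array but that of hSRY-ON replicate 3 was left out, with the adjusted p at 0.0576 to 0.114, and without that array it was 0.00804. It was also lost with the replicate number as a block (adjusted p = 0.0747).

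Tbx4 and Tbx5 are neighbours in function, and together they drive outgrowth and branching of the lung bud through signals such as Fgf10. Tbx4 read 10.49, 10.65 and 10.23 in hSRY-OFF and 9.25, 9.48 and 10.10 in hSRY-ON, so that here too hSRY-ON replicate 3 stood nearest to the hSRY-OFF arrays. It fell by 0.85 (SE 0.24; limma, adjusted p = 0.0373). As for Tbx2, the call was lost when any array other than that of hSRY-ON replicate 3 was left out (adjusted p = 0.0602 to 0.124), and it was 0.00705 without that array. Without the detection filter the adjusted p was 0.0561, and with the replicate number as a block it was 0.0767.

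The detected probe of Tbx5 gave no such separation. It read 7.26, 7.37 and 7.00 in hSRY-OFF and 6.38, 6.83 and 7.34 in hSRY-ON, with the third hSRY-ON array inside the range of the hSRY-OFF arrays. Its change was -0.36 with a 95% interval from -0.94 to 0.22 (limma, adjusted p = 0.313), an interval that includes changes as large as those of Tbx2 and Tbx4. The second Tbx5 probe was not detected on any array. In the genome Tbx2 lies next to Tbx4 and Tbx3 next to Tbx5, with no other coding gene between them in the RefSeq annotation, so the 3 called genes of this subfamily sit in 2 places.

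**Figure D2:**
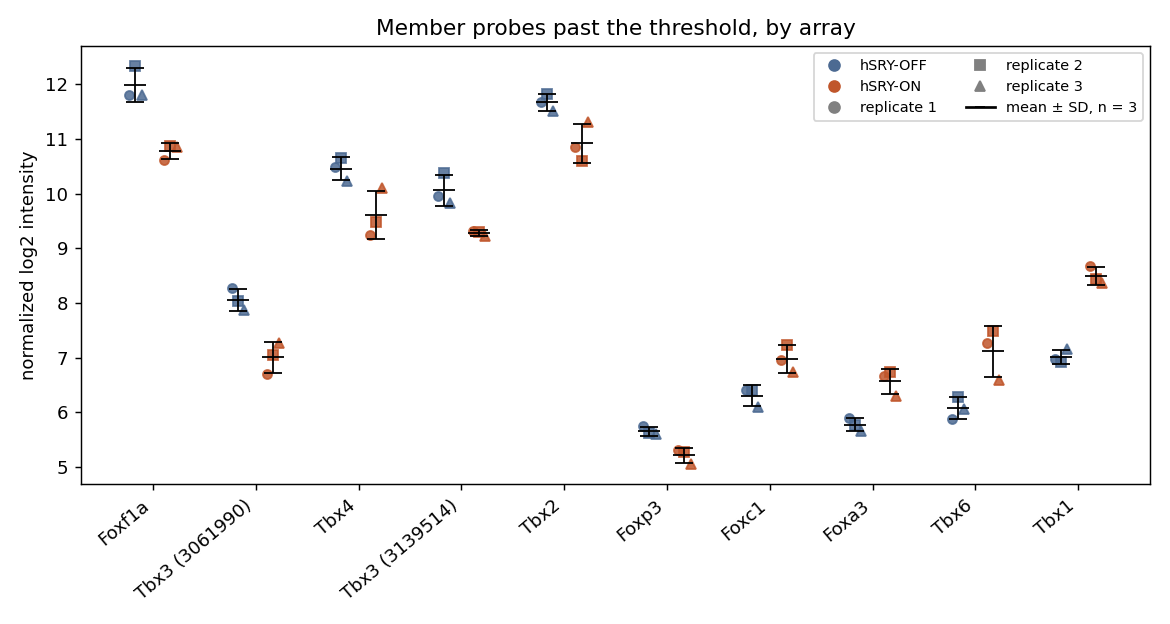
Normalized log2 intensity (y axis) of the 10 member probes past the threshold (x axis, ordered by change), with 1 point per array, the symbol giving the replicate, and the mean ± SD (n = 3) in black. No hSRY-ON point overlaps the hSRY-OFF points of its probe, and in Tbx2 and Tbx4 the hSRY-ON replicate 3 point lies apart from the other two.

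Tbx1, a regulator of the pharyngeal arches and of the outflow tract of the heart, had the largest rise. It read 6.99, 6.92 and 7.16 in hSRY-OFF and 8.68, 8.44 and 8.37 in hSRY-ON lungs. The hSRY-ON arrays lay more than 1 unit above the hSRY-OFF arrays, and the spread within either group was small beside that gap. The change was 1.48 ± 0.14 (SE, n = 3 per group; limma, adjusted p = 0.00120). It passed under all 17 alternatives, and the change was 0.90 without background correction.

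Tbx6, which patterns the presomitic mesoderm of the embryo, was close to background in hSRY-OFF lungs. Its tested probe read 5.88, 6.29 and 6.07 in hSRY-OFF and 7.27, 7.49 and 6.60 in hSRY-ON, where replicate 3 was again nearest to the hSRY-OFF arrays. It rose by 1.04 (SE 0.24; limma, adjusted p = 0.0209). The call was lost without any 1 of the hSRY-OFF arrays or without hSRY-ON replicate 2 (adjusted p = 0.0510 to 0.0817), and the rise was 0.44 without background correction. A second Tbx6 probe failed the filter. It was detected on the arrays of hSRY-ON replicates 1 and 2, at 5.83 and 6.43, and in none of the hSRY-OFF lungs.

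Among the forkhead factors of mesenchyme and vessels, Foxf1 fell and Foxc1 rose. Foxf1 (Foxf1a on the array) is induced in lung mesenchyme by Hedgehog signals from the epithelium and is required for the pulmonary capillaries. Its probe read 11.81, 12.34 and 11.82 in hSRY-OFF and 10.62, 10.88 and 10.86 in hSRY-ON. The groups were well separated, and the hSRY-ON arrays lay close together. Foxf1 fell by 1.21 (SE 0.18; limma, adjusted p = 0.00490), the largest fall among the members. It passed under all 17 alternatives, with changes from -1.30 to -1.03, and the change was -1.15 without background correction.

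Foxc1, which acts in the development of vessels and of the mesenchyme around them, read 6.42, 6.41 and 6.09 in hSRY-OFF and 6.97, 7.23 and 6.73 in hSRY-ON. It rose by 0.67 (SE 0.17; limma, adjusted p = 0.0279). The call was lost without any 1 of the hSRY-OFF arrays or without hSRY-ON replicate 2 (adjusted p = 0.0704 to 0.0903), and without background correction the rise was 0.28. Foxc1 lies beside Foxf2 and Foxq1 in the genome. Foxf2, the relative of Foxf1 in mesenchyme, was detected on the array of hSRY-OFF replicate 2 alone and was not tested. It was called lower when probes detected on at least 1 array were admitted and when no filter was applied. The first of these filters admitted it through hSRY-OFF alone. Its values were close to background, at 5.03, 5.36 and 5.10 against 4.58, 4.59 and 4.77, so these calls do not show a fall. Foxc2 and Foxl1, the neighbours of Foxf1, failed the filter, as did Foxd1 and Foxd2.

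The forkhead factors of epithelium gave 1 call from 8 tested probes (12.5%, beside 26.9% of all). Foxa3, a relative of the endodermal pioneer factors, read 5.90, 5.76 and 5.66 in hSRY-OFF and 6.66, 6.74 and 6.31 in hSRY-ON. It rose by 0.80 (SE 0.15; limma, adjusted p = 0.0111) and passed under all 17 alternatives. The signal was dim, and the rise was 0.28 without background correction. Foxa1, which opens chromatin for lung epithelial genes, read 9.78, 9.78 and 9.43 against 10.17, 10.30 and 9.86. Its groups did not overlap, but a change of 0.44 with an interval from 0.05 to 0.84 did not pass after adjustment (limma, adjusted p = 0.0896). It passed only without hSRY-ON replicate 3 (adjusted p = 0.0451).

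Foxp1, Foxp2 and Foxp4 restrain secretory differentiation in the airway epithelium. Foxp1 read 10.52, 10.49 and 9.79 in hSRY-OFF and 9.49, 9.88 and 9.55 in hSRY-ON, and the hSRY-OFF replicate 3 array lay within the hSRY-ON range. Its change was -0.62 (interval -1.15 to -0.09; limma, adjusted p = 0.0804). Without hSRY-OFF replicate 3 the change was -0.87 and passed (adjusted p = 0.0263). The 3 tested probes of Foxp2 changed by 0.03, -0.24 and 0.22, none past the threshold (limma, adjusted p = 0.308 to 0.937), and only the last was detected on all arrays. Foxp4 changed by -0.02, with an interval from -0.31 to 0.27. Foxq1 read 9.67, 9.64 and 9.51 against 8.98, 9.59 and 9.17, a change of -0.36 that did not pass (limma, adjusted p = 0.167) except when hSRY-ON replicate 2 was left out.

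Nkx2-1, also called thyroid transcription factor 1, is the factor that gives lung epithelium its identity. Both of its probes were detected on all arrays, and they pointed in opposite directions. The brighter one (ILMN_1260212) read 8.04, 8.47 and 8.55 in hSRY-OFF and 8.68, 7.92 and 7.21 in hSRY-ON, and the other (ILMN_2620250) read 6.16, 6.27 and 5.75 against 6.50, 6.51 and 6.17. Their changes were -0.42 (interval -1.25 to 0.41) and 0.33 (interval -0.09 to 0.75), and neither passed (limma, adjusted p = 0.409 and 0.203). On the brighter probe the hSRY-ON arrays had an SD of 0.73, against 0.27 in hSRY-OFF. These arrays therefore fix neither a direction nor a size for Nkx2-1. The other 9 Nkx genes failed the filter, and 8 of them, the cardiac factor Nkx2-5 included, were not detected on any array.

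**Figure D3:**
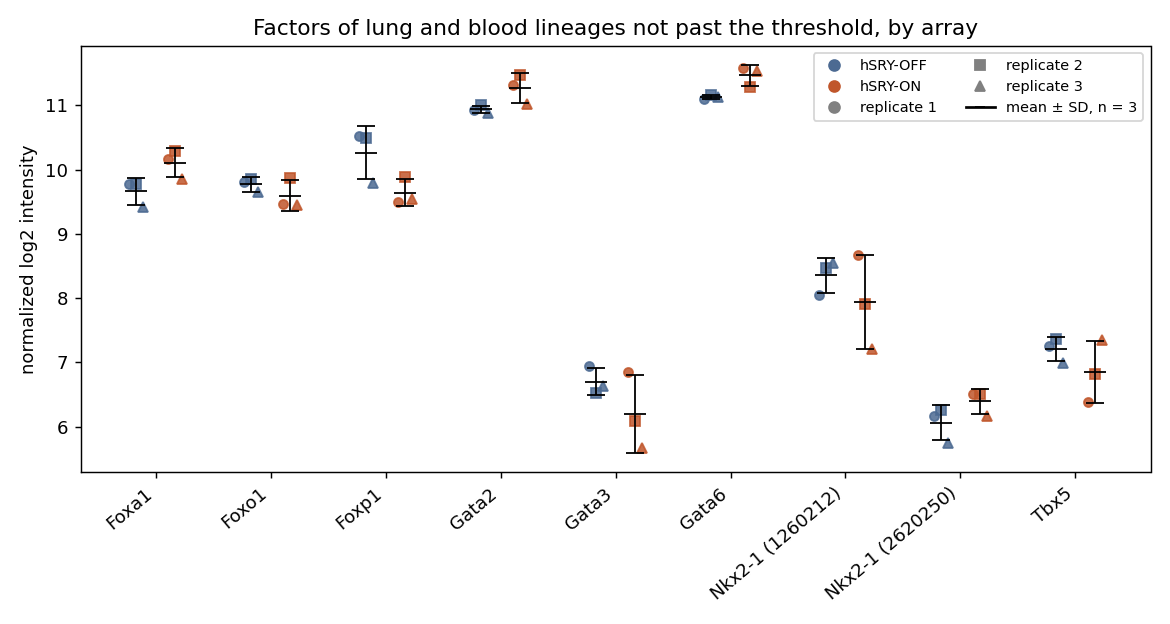
Normalized log2 intensity (y axis) of 9 probes for 8 members that did not pass the threshold (x axis), with 1 point per array, the symbol giving the replicate, and the mean ± SD (n = 3) in black. The hSRY-ON points of Gata3, Tbx5 and the brighter Nkx2-1 probe are spread more widely than the hSRY-OFF points, whereas Gata2, Gata6 and Foxa1 show small shifts without overlap.

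No GATA probe passed. Gata6, which acts with Nkx2-1 in alveolar epithelium and also in smooth muscle, read 11.10, 11.17 and 11.13 in hSRY-OFF and 11.58, 11.28 and 11.54 in hSRY-ON. Its change of 0.33 (interval 0.04 to 0.63) missed the threshold at an adjusted p of 0.0871 (limma). It passed without background correction (adjusted p = 0.0365) and with a variance trend and robust estimation (adjusted p = 0.0365). Gata2, a factor of blood progenitors, mast cells and endothelium, read 10.93, 11.00 and 10.88 against 11.32, 11.47 and 11.02, a change of 0.34 (interval -0.01 to 0.68; limma, adjusted p = 0.128). It passed only without hSRY-ON replicate 3 (adjusted p = 0.0379). The cardiac and endodermal Gata4 was detected on the array of hSRY-ON replicate 1 alone, and Gata5 on none. Neither probe of Gata1, the factor that drives the red cell programme, was detected.

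Members that act in T lymphocytes gave dim signals. Foxp3 was detected by 1 of its 3 probes, in all 3 hSRY-OFF lungs but in none of the hSRY-ON lungs, at 5.75, 5.62 and 5.60 against 5.32, 5.27 and 5.05. It passed the filter through the hSRY-OFF arrays alone. Set against the lowest detected signals of the hSRY-ON arrays, Foxp3 was at least 1.19-fold lower under this processing (means 5.65 and 5.21). The fit gave an adjusted p of 0.0401 (limma). The bound carries no sampling error, and without background correction the log2 change was only -0.12 (limma, adjusted p = 0.253). The call held under 5 of 15 alternatives, and was lost when any array other than that of hSRY-ON replicate 1 was left out. Gata3 read 6.94, 6.53 and 6.63 against 6.85, 6.08 and 5.66, a change of -0.50 (interval -1.20 to 0.19; limma, adjusted p = 0.244). It passed without hSRY-ON replicate 1 (change -0.84, adjusted p = 0.0210), the array on which it was brightest in that group. Tbx21, the factor of type 1 helper T cells, was not detected.

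Most T lymphocyte markers that were tested were lower in hSRY-ON. Of 12 such genes 11 were on the array and 8 were tested. Of these 5 were lower in hSRY-ON and 0 higher (limma, adjusted p under 0.05), or 62.5% beside 26.9% of all tested probes. Their median change was -1.25. The T cell surface genes Cd2 and Cd3e changed by -1.37 (limma, adjusted p = 0.00241) and -1.75 (adjusted p = 0.0112). Zap70 and Il7r, named after their values were seen, had positive changes of 0.54 and 0.10 that did not pass (adjusted p = 0.127 and 0.838). The summed intensity of the list ran from 2047 to 2260 in hSRY-OFF and from 751 to 1820 in hSRY-ON. Cd4, Cd8a and Il2ra were not detected on any array. In whole lung, fewer cells of a type and less RNA per cell cannot be told apart, here or in the other results, and the part of the lymphocytes in the values of Foxp3 and Gata3 was not tested.

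The forkhead genes Foxj2, Foxj3, Foxk1 and Foxn3, of broad expression, were tested by 8 probes and gave no call. Foxj3 was tested by 5 probes with changes from -0.27 to 0.33 (limma, adjusted p = 0.177 to 0.917). The brightest of them, at 9.41 ± 0.10 (SD, n = 3) and 9.52 ± 0.06 (SD, n = 3), changed by 0.11 (interval -0.16 to 0.37). Foxk1 and Foxn3 had non-overlapping groups and changes of -0.33 and -0.31 that did not pass (limma, adjusted p = 0.0887 and 0.110). The change of Foxj2 was 0.19 (adjusted p = 0.261).

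Foxo1, a factor held in the cytoplasm when insulin signalling is active, read 9.81, 9.86 and 9.64 in hSRY-OFF and 9.46, 9.87 and 9.44 in hSRY-ON. Its change was -0.18 (interval -0.54 to 0.19; limma, adjusted p = 0.428) and it passed under none of the 17 alternatives. The probes of Foxo3 and Foxo4 were not detected, and 1 of 3 Foxo6 probes was detected on 2 hSRY-ON arrays. Genes that FoxO proteins are known to activate were examined alongside. Of 18 such genes 14 were tested, and 6 were higher and 0 lower (limma), or 42.9% beside 26.9% of all tested probes. Their median change was 0.60, beside -0.03 for all tested probes, with 11 changes positive and 3 negative. The negative ones, of Cat (-0.47), Bcl2l11 (-0.06) and Eif4ebp1 (-0.002), did not pass (limma, adjusted p = 0.351, 0.836 and 0.996). Pdk4, which restrains glucose oxidation, rose by 3.29 (adjusted p = 0.00480), and Fbxo32, a ubiquitin ligase of muscle wasting, rose by 1.67 (adjusted p = 0.00285). The summed intensity of this list, in which Txnip weighs most, ran from 18939 to 21446 in hSRY-OFF and from 29231 to 40064 in hSRY-ON. These genes also respond to other signals, and the part of FoxO proteins was not tested.

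For the mesenchymal factors, 14 lung mesenchyme genes were examined alongside, of which 12 were tested. Of these 3 were lower and 0 higher (25% called, near the 26.9% of all tested probes), with a median change of -0.35. Wnt2, a ligand made by the mesenchyme that induces the lung field, fell by 2.18 (limma, adjusted p = 0.00696), and the smooth muscle actin Acta2 fell by 0.62 (adjusted p = 0.0412). The summed intensity ran from 72330 to 77147 in hSRY-OFF and from 64451 to 71777 in hSRY-ON, and Gli1 was not detected on any array. Fgf10 changed by -0.34 and Tcf21, a factor of lung fibroblasts, by 0.23, and neither passed (adjusted p = 0.134 and 0.238). Of the 12 changes 3 were positive and 9 negative, and the part of the amount of mesenchyme in the falls of Tbx3 and Foxf1 was not tested.

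Of 14 endothelial genes 13 were tested, and 7 were lower and 0 higher in hSRY-ON, with a median change of -0.47. The share called was 53.8%, beside 26.9% of all tested probes. Tie1, an orphan receptor of vessels, fell by 0.82 (limma, adjusted p = 0.00421), and the tight junction gene Cldn5 fell by 0.67 (adjusted p = 0.00947). The summed intensity ran from 94980 to 100109 in hSRY-OFF and from 76369 to 80763 in hSRY-ON, and Kdr was not detected. Of the 13 changes 1 was positive and 12 negative. Foxf1 fell too, whereas Foxc1 rose and the change of Gata2 did not pass. The part of the endothelium in the fall of Foxf1 was not tested.

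Genes that Nkx2-1 activates in alveolar and airway epithelium gave 4 calls from 11 tested genes (36.4%, beside 26.9% of all), each of them higher. Of the 11 changes 7 were positive and 4 negative, with a median of 0.39. The surfactant protein gene Sftpb rose by 0.67 (limma, adjusted p = 0.00800) and the lipid transporter gene Abca3 by 0.60 (adjusted p = 0.00888), whereas Scgb1a1 changed by 0.01. The surfactant protein gene Sftpc, Lamp3 and Cldn18 had changes of -0.25, -0.31 and -0.29, with groups that did not overlap, and did not pass (adjusted p = 0.150, 0.106 and 0.139). The summed intensity ran from 124407 to 126775 in hSRY-OFF and from 140601 to 155640 in hSRY-ON.

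The cell types in which Gata1, Gata2, Gata4 and Nkx2-5 act gave mixed values. Of 10 tested erythroid genes 1, Rhag, was higher, by 0.82 (limma, adjusted p = 0.00512), and 0 were lower. That is 10% called, beside 26.9% of all tested probes. The globin gene Hba-a1 was the brightest probe of each array and so had the same normalized value, 15.48, on all 6. Without it the summed erythroid intensity ran from 13531 to 21674 in hSRY-OFF and from 13882 to 21371 in hSRY-ON. Of 10 tested cardiac muscle genes 3 were higher and 3 lower (60% called, beside 26.9% of all tested probes), with a median of -0.01. The myosin light chain genes Myl2 and Myl4 changed by -2.59 (limma, adjusted p = 0.00339) and -1.94 (adjusted p = 0.00501), and Ryr2 was not detected. The higher ones, named after their values were seen, were Nppa (5.55), which encodes atrial natriuretic peptide, Myh7 (0.98) and Mybpc3 (0.96), with adjusted p = 0.00611, 0.00865 and 0.0172. The summed cardiac intensity ran from 7803 to 10907 in hSRY-OFF and from 4884 to 9802 in hSRY-ON. Of 6 tested mast cell and basophil genes 33.3% were called, beside 26.9% of all tested probes. Tpsb2 (Mcpt6 on the array) rose by 0.94 and Mcpt4 fell by 1.32 (limma, adjusted p = 0.0481 and 0.0147). Ms4a2 was not detected, and the sums ran from 10111 to 12415 in hSRY-OFF and from 6629 to 12306 in hSRY-ON.

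**Figure D4:**
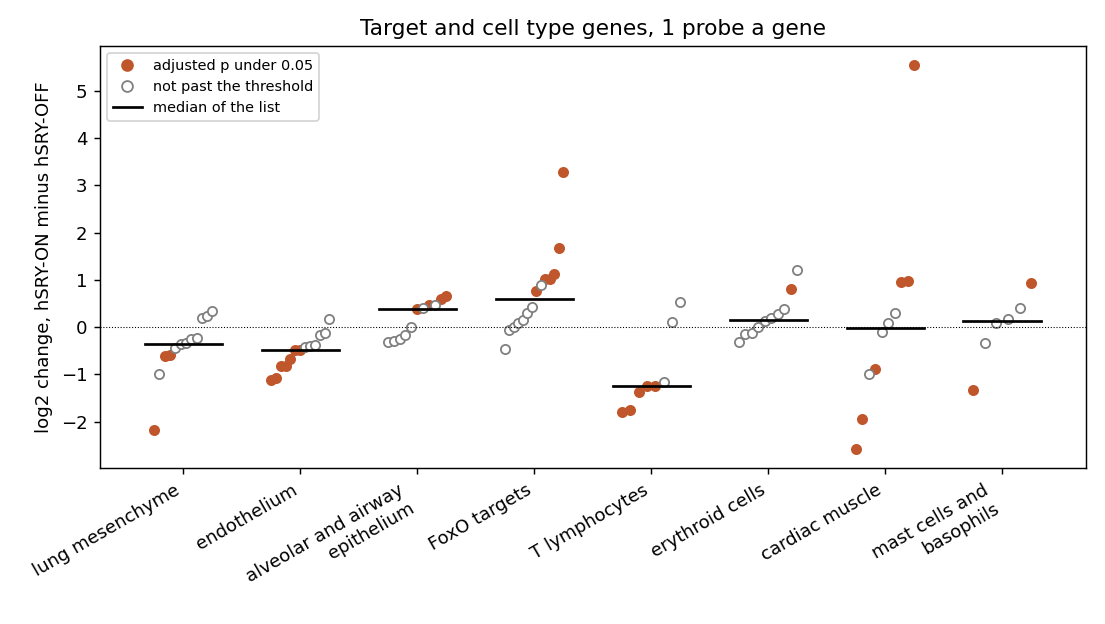
Log2 change (hSRY-ON minus hSRY-OFF, y axis) of the tested genes of 8 lists (x axis), with 1 point per gene (the kept probe of highest mean), filled where the adjusted p was under 0.05, and the list's median as a black line. The medians run from -1.25 for T lymphocytes to 0.60 for FoxO targets, and the cardiac list holds calls in both directions.

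SRY binds DNA through its HMG box at a core of the letters AACAAT. Promoters of the called members that rose are shown, and those of Foxp3 and Tbx4, which fell, were searched but are not shown. No window shown holds these letters on either strand, and whether SRY acts on these genes was not tested. All 66 symbols matched 1 RefSeq gene, and 45 of these genes had a promoter window in the RefSeq table (GRCm38.p6), 6 of the 9 called genes among them. Tbx2, Tbx3 and Foxf1 had no entry. The windows below are the 250 bases before the annotated start, 5′ to 3′ on the strand of the gene, with each CG step in capitals. For Tbx1, which has more than 1 window, the outermost is shown.
Tbx1, chr16:18590672-18590921, minus strand: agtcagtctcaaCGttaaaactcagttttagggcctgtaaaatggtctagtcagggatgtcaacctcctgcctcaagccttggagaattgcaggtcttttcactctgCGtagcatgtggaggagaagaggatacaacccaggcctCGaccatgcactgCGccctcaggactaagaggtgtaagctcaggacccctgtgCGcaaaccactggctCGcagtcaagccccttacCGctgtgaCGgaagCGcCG
Tbx6, chr7:126781233-126781482, plus strand: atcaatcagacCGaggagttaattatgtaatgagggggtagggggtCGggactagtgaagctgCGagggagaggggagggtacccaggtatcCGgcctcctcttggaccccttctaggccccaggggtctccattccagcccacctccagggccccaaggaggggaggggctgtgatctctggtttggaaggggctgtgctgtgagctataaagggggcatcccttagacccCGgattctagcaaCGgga
Foxa3, chr7:19023540-19023789, minus strand: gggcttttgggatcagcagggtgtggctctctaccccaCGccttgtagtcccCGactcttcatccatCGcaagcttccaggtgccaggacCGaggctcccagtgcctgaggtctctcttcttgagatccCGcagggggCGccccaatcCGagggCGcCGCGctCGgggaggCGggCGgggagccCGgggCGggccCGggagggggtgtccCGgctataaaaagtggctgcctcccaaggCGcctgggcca
Foxc1, chr13:31806396-31806645, plus strand: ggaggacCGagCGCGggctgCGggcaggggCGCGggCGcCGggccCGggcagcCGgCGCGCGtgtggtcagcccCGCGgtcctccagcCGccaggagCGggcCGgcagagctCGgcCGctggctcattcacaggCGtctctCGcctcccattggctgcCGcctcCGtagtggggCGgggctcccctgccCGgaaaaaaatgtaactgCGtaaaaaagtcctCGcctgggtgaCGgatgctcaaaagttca

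The 4 windows differ in composition. That of Foxa3 holds 18 CG steps at a GC content of 68.8%, that of Foxc1 29 at 70.8%, that of Tbx1 10 at 54.4% and that of Tbx6 6 at 59.6%. Over the 52 windows of the members the median GC content was 60.8% with a median of 14.5 CG steps, beside 52.4% and 6 over all 32851 windows of the table. The letters AACAAT, on either strand, were in 0 of the 8 windows of called members, of which that of Tbx4 lies within the annotated gene, and in 5 of the 52 windows of all members, or 9.62%, beside 9.42% of all windows. The forkhead core GTAAACA was in 1 of the 52 windows (1.92%, beside 3.17% of all windows), the T-box half-site AGGTGTGA in 0 (beside 1.12%) and the GATA core AGATAA in 4 (7.69%, beside 9.99%), each on either strand. AACAAT and GTAAACA share the letters AACA, so their matches can overlap. The only one of these motifs in a window of a called member was a GATA core 47 bases before a start of Foxp3. These are matches of letters in short windows, and the arrays measured no binding.

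How firmly each call stood varied between the members. Tbx1, Foxf1, Foxa3 and both Tbx3 probes passed under all 17 alternatives at the threshold of 0.05, whichever array was left out. Tbx2, Tbx4, Tbx6, Foxc1 and Foxp3 each lost their call under at least 4 of them. At an adjusted p under 0.01 the probes of Tbx1, Foxf1 and Tbx3 (ILMN_3061990) remained. Over the 10 called probes, hSRY-ON replicate 3 was the array nearest to the hSRY-OFF values in 7, replicate 1 in 2 and replicate 2 in 1. The median SD of the tested members was 0.22 in hSRY-ON and 0.20 in hSRY-OFF, closer than for all tested probes (0.22 and 0.13).

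**Figure D5:**
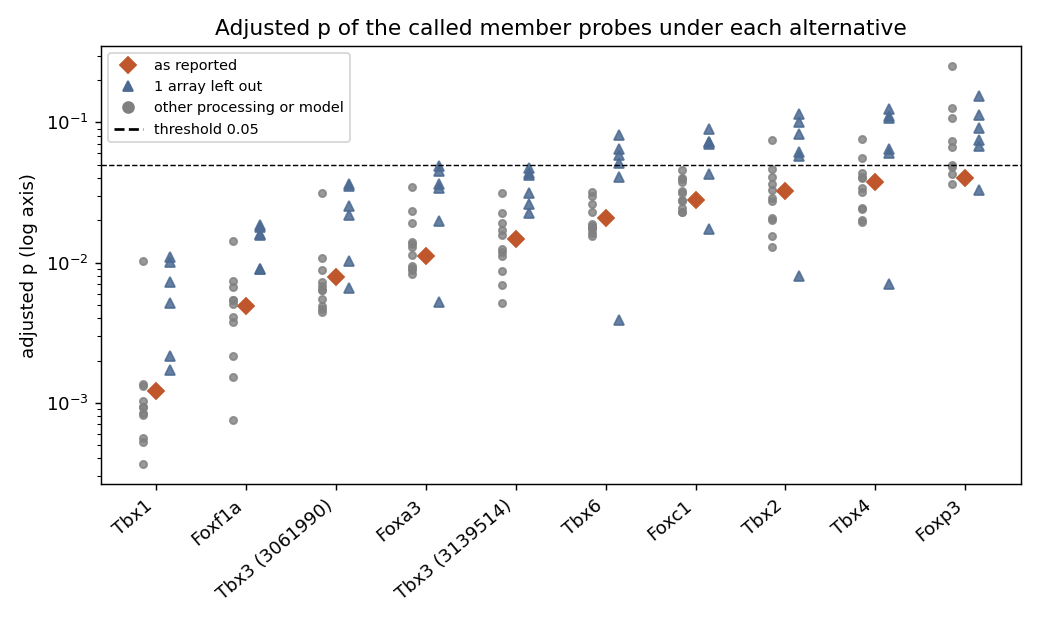
Adjusted p (y axis, log scale) of the 10 called member probes (x axis) as reported, with 1 array left out (triangles) and under other processing or models (circles), with the threshold of 0.05 as a dashed line. Every point of Tbx1, Foxf1, Foxa3 and both Tbx3 probes lies below the line. Most of the leave-one-out points of Tbx2, Tbx4, Tbx6, Foxc1 and Foxp3 lie above it.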

How the data were processed

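RNA of 6 lungs was measured on Illumina MouseRef-8 v2.0 BeadChips. The authors deposited, per probe and array, an intensity on a linear scale (mean bead signal, neither background-corrected nor normalized; array medians 177.1 to 204.0). The detection p-value deposited beside it by the authors was made by ranking each probe's signal among the negative control probes of the array. How beads were summarised is not given in the sources used here. The study's methods name the count-based R package TCC and the submitters' processing notes name limma. Since the values are intensities, limma 3.58.1 (R 4.3.3) was used. The neqc function took background from the detection p-values, added an offset of 16, applied quantile normalization and gave log2 values. This gives every array 1 distribution and compresses changes near background. Probes detected on at least 3 arrays entered lmFit and eBayes with the group as the sole term, followed by Benjamini-Hochberg adjustment. Probes of a gene were kept apart. An exact permutation test of 3 against 3 arrays cannot go below 0.1, so the calls depend on limma's pooling of variance over probes. For a probe not detected in 1 group, the other group's mean was set against, per array, the higher of its own value and the lowest detected value. List genes were represented by the tested probe of highest mean, and their sums are of normalized linear intensities.

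Members and gene lists were chosen with earlier results of these data known. Named genes were every member past the threshold and Nkx2-1, Foxa1, Foxf1, Foxf2, Foxp1, Foxp2, Foxo1, Foxo3, Gata2, Gata3, Gata6 and Tbx2 to Tbx5 whatever their result, with the 2 genes of smallest p for each list, of which 1 is not reported here. Other genes were named after their values were seen. On simulated data (20532 probes tested, 100 planted changes of each size) 57.0% of 2-fold and 86.0% of 4-fold changes were called. Of the calls 4.03% were false. The simulation gave 149 calls, whereas the real fit called 3728 of 13841 tested probes. The Benjamini-Hochberg cut-off depends on the share of probes called, so these rates do not describe the real comparison. No 2 arrays were identical. Leaving out an array kept the same probes and repeated the normalization. Whether mice shared a litter is not given in the sources used here.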

Additional observations from a re-analysis of the deposited data

Results flagged for a closer look

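Member probes of Tbx6, Foxn4, Foxo6 and Gata4 that failed the filter were detected in hSRY-ON lungs and in none of the hSRY-OFF lungs. The second Tbx6 probe was detected on 2 hSRY-ON arrays, as were a Foxn4 and a Foxo6 probe, and the Gata4 probe was detected on 1. The Foxn4 probe read 5.09, 4.99 and 5.31 in hSRY-OFF and 5.48, 5.32 and 6.01 in hSRY-ON, and the Foxo6 probe read 4.98, 4.75 and 4.88 against 5.11, 6.13 and 5.55. The detection threshold lets about 5% of probes without signal pass on each array and 63 member probes were untested. As many untested member probes went the other way, since Foxb1, Foxf2 and Nkx2-3 each had a probe detected on 1 hSRY-OFF array, Foxl1 had one detected on 2, and none of these was detected in hSRY-ON lungs. The differences were not tested.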

How the results depend on the processing

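All alternatives were planned. Of the member probes, 4 were called higher and 6 lower. Under the other backgrounds, normalizations, filters and variance models these counts stayed within 1.5 times, at 4 to 5 and 5 to 7. At an adjusted p under 0.01, by construction fewer, 1 and 2 remained (1326 of all probes, against 3728). Leaving out an array gave 2 to 6 higher, 3 to 5 lower and 1652 to 4442 of all probes; the count of all probes was lowest without hSRY-OFF replicate 1 (1652), replicate 2 (1748), replicate 3 (2235) or hSRY-ON replicate 2 (2462), each with 2 higher. The cause was not tested. Same-numbered arrays deviated together with correlations of -0.11, 0.10 and -0.09, beside -0.09 to 0.16 for arrays of other numbers. These values gave no sign of pairing by replicate number, but with 3 arrays per group they cannot exclude shared litters. With the replicate block 4 member probes were called higher and 3 lower, as Tbx2, Tbx4 and Foxp3 were lost (adjusted p = 0.0747, 0.0767 and 0.0732). The median member change of -0.14 ranged from -0.21 to -0.01 over all settings. Of the single-probe values, 328 kept their direction and side of the threshold, 31 lost a call, 7 gained one, and 2 reversed. Both came from a Foxp2 probe near background, whose change of 0.03 ranged from -0.17 (hSRY-OFF replicate 3 left out) to 0.23 and was -0.07 with hSRY-ON replicate 2 left out. Among the called probes, those of Foxa3, Foxc1, Foxp3 and Tbx6 had small changes without background correction (0.28, 0.28, -0.12 and 0.44).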
